A study of Mus musculus with 9 samples.

Results

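Glycosaminoglycans are the long sulfated sugar chains that turn a core protein into a proteoglycan. Both chondroitin sulfate and heparan sulfate start from the same short linker of sugars built on a serine of the core protein. The next sugar added decides which chain follows, and sulfotransferases then decorate that chain with sulfate taken from the donor PAPS. In cartilage, chondroitin sulfate on aggrecan holds water and gives the matrix its stiffness, whereas heparan sulfate at the cell surface and in the matrix binds growth factors such as fibroblast growth factors, Wnts, hedgehogs and bone morphogenetic proteins. The 42 genes described here encode the enzymes and transporters of this pathway in the mouse. They were found by their gene symbols, and all 42 were present among the 54532 genes of the deposited table. They comprise 5 linker enzymes, 6 enzymes of chondroitin chain growth, 7 chondroitin sulfotransferases, 3 dermatan sulfate enzymes, 5 heparan sulfate polymerases and their relatives, 9 enzymes that modify heparan sulfate, 2 extracellular sulfatases, and 5 genes that supply sulfate and sugar precursors.

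Poly(A) RNA was sequenced from knees of E14.5 mouse embryos with the genotype Creb53XHA-P2A-tdTomato/+; Sox9iresEGFP/+, so every cell analysed carried 1 copy of each reporter allele. The red reporter follows Creb5, a transcription factor of the forming joint, and the green reporter follows Sox9, the master regulator of cartilage. Cells were sorted into double-positive cells (both reporters), RFP-single cells (Creb5 reporter alone) and GFP-single cells (Sox9 reporter alone), each from litters 1, 2 and 5, which gave 3 libraries per population and 9 in all. The gate is a model of a cell population and not a cell type in itself, because every cell with the reporter enters it, and each library is labelled with 1 litter. Values are normalized counts throughout, and where 3 values stand for 1 population they are those of litters 1, 2 and 5 in that order.

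The libraries held 25199258 to 47079305 reads. Creb5 itself, as a check of the sort, had 3408, 2969 and 2754 in double-positive cells, 3343, 2006 and 3531 in RFP-single cells, and 196, 138 and 274 in GFP-single cells. Sox9 had 29767, 16565 and 24088 in double-positive cells, 1873, 1091 and 1891 in RFP-single cells, and 37991, 22771 and 25967 in GFP-single cells. Creb5 was thus high in both populations sorted for red, and Sox9 in both sorted for green. Chondrocyte markers followed the green gate. Their 8 normalized counts summed to 237239, 242095 and 696539 in the lowest, middle and highest double-positive library, to 3602, 7157 and 10123 in RFP-single libraries and to 1265971, 1282912 and 1791209 in GFP-single libraries, and none was at 0. One library stood apart. The GFP-single library of litter 5 differed from the other GFP-single libraries by a median log2 of 0.83 over the quartile of genes with the shortest exon length and by -0.40 over the longest quartile. Double-positive and RFP-single libraries spanned -0.16 to 0.22 over all quartiles, each against the others of its population. The GFP-single libraries of litters 1 and 2, whose reference includes that of litter 5, spanned -0.45 to 0.23. Because 16 of the 42 members lie in the longest quartile and 4 in the shortest, changes of members that gain or lose their call, or whose fold moves by over 1.5 times, without this library are given with it left out.

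Each comparison asked which steps of the pathway differ between 2 of the sorted populations. Fold changes are differences of log2(normalized count + 1) from limma, with a standard error (SE) after ±, n = 3 libraries per population, and a p-value adjusted by Benjamini-Hochberg over the 17764 genes with a mean of at least 10. A gene passed below an adjusted p of 0.05. In double-positive against GFP-single cells, 5 members were higher and 8 lower, with 29 not passing. Among all genes tested 8.29% passed in that comparison, 5.27% higher and 3.02% lower. The 8 lower members became 4 when double-positive cells of litter 1 or of litter 2 or GFP-single cells of litter 1 were left out, and 5 without GFP-single cells of litter 2, and the 5 higher members became 8 without GFP-single cells of litter 1. In RFP-single against GFP-single cells, 7 members were higher and 13 lower, against a background of 20.3% of all genes, 11.8% higher and 8.48% lower. In double-positive against RFP-single cells, 6 members were higher and none lower, against a background of 2.85%, with 1.8% higher and 1.05% lower. At an unadjusted p under 0.05 limma placed 3 members lower in that last comparison, edgeR called 0 lower and DESeq2 called 1, and limma called 1 without GFP-single cells of litter 5. The median log2 fold change of the 42 members was -0.04, -0.21 and 0.16 in the 3 comparisons in that order, beside 0.04, 0.05 and -0.01 for all genes tested. In an F-test of any difference among the populations, 20 of 42 members passed (47.6%), against 17.2% of all genes. The 3 comparisons share libraries in pairs and are not independent of each other.

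**Figure D1:**
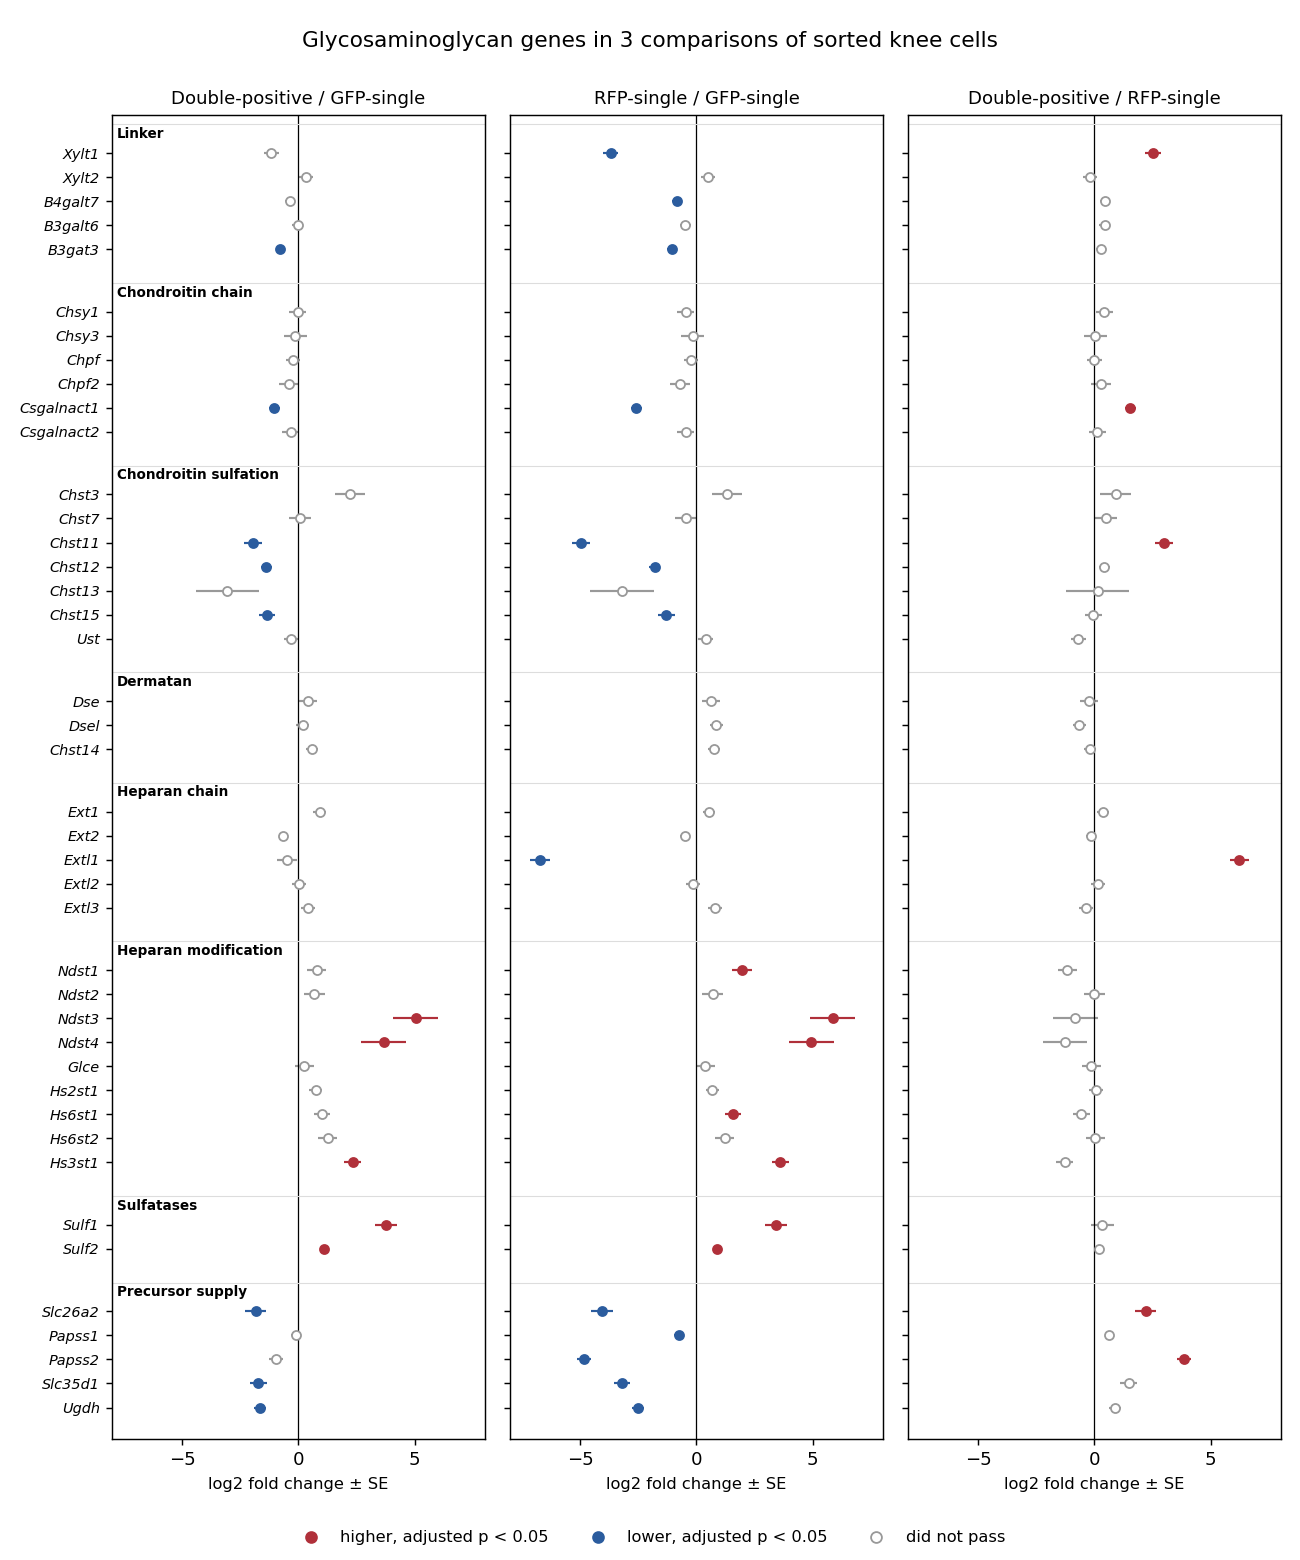
Log2 fold change (x axis, with bars of ± SE) of each of the 42 members (y axis, grouped by role) in double-positive against GFP-single, RFP-single against GFP-single and double-positive against RFP-single cells, in red where higher and in blue where lower at an adjusted p below 0.05, and in grey otherwise. Members that supply precursors lie left of 0 in RFP-single against GFP-single cells. The 9 heparan-modifying enzymes and 2 sulfatases lie right of 0 in both comparisons with GFP-single cells. Of the 9, Ndst3 and Ndst4 met the filter on the mean only through the red populations. Glce, which was not called, turns to the left of 0 there without the GFP-single library of litter 5.

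Of the 20 members called in any comparison, 16 fell into 3 patterns over pairs of comparisons. Higher in GFP-single cells than in both others were 8 members, B3gat3, Csgalnact1, Chst11, Chst12, Chst15, Slc26a2, Slc35d1 and Ugdh, against 2.44% of all genes. Lower in GFP-single cells than in both others were 5 members, Ndst3, Ndst4, Hs3st1, Sulf1 and Sulf2, against 4.22% of all genes. Of these, Ndst3 and Ndst4 met the filter on the mean only through the red populations. Lower in RFP-single cells than in both others were 6 members, Xylt1, Csgalnact1, Chst11, Extl1, Slc26a2 and Papss2, against 1.49% of all genes. The 4 in none of these, B4galt7, Ndst1, Hs6st1 and Papss1, were called in RFP-single against GFP-single cells alone. No member was highest or lowest in double-positive cells in both of the limma tests, where 0.236% and 0.0619% of all genes were. Of the 20 members that differed between RFP-single and GFP-single cells, 17 (85.0%) had a double-positive mean between the means of those populations, next to 84.0% of all 3601 genes called there. The exceptions were Chst15, Sulf1 and Sulf2.

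Upstream sequence is shown for 3 members with high values in GFP-single cells and for Sulf2, which was higher in both red populations, so that their start regions can be compared. The windows are the 250 bases before the RefSeq transcription start on build GRCm38.p6, written 5′ to 3′ on the strand of the gene, and capitals mark GGGCGG or its complement CCGCCC, the core of the Sp1 GC box.
Papss2, chr19:32595465-32595714, plus strand: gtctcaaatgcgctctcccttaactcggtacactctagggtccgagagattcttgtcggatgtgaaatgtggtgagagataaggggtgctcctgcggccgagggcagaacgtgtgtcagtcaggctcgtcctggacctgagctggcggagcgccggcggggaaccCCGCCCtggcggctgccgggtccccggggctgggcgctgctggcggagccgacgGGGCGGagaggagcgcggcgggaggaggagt
Chst11, chr10:82985247-82985496, plus strand: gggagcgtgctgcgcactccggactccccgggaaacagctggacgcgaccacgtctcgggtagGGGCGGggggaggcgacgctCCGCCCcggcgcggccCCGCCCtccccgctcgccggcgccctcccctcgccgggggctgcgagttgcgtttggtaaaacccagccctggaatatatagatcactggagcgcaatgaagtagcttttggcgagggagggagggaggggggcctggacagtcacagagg
Slc35d1, chr4:103215177-103215426, minus strand: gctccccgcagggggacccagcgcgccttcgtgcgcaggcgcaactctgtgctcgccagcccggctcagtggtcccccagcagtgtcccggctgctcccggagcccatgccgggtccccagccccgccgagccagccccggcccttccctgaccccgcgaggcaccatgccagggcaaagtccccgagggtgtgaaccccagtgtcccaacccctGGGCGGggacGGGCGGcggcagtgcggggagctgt
Sulf2, chr2:166155684-166155933, minus strand: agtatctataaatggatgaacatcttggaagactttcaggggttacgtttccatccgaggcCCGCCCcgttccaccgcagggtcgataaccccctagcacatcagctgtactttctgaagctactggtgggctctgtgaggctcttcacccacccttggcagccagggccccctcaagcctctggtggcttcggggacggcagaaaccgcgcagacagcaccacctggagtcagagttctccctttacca
G and C made up 67.6%, 70.0%, 75.2% and 57.2% of the windows of Papss2, Chst11, Slc35d1 and Sulf2. None of these 4 windows held, on either strand, the SOX core letters ACAAAG or ACAATG, the cyclic AMP response element core TGACG or its full palindrome TGACGTCA, or the AP-1 site TGANTCA. RefSeq windows were matched for 33 of the 42 members, 42 windows in all, and Xylt1, Chsy3, Csgalnact1, Ext1, Extl3, Ndst1, Ndst4, Sulf1 and Slc26a2 had none. GGGCGG occurred in 25 of the 42 windows, where 32.7% of all 32851 windows in the table held it. TGACG occurred in 11 of the 42, where 17.8% of all windows held it. One of these was the window of Chpf, whose TGACGTCA contains that core on both strands, and 1.55% of all windows held the palindrome. ACAAAG was found in the window of Chst3 alone among members and in 16.5% of all windows, ACAATG in that of Xylt2 alone and in 10.7%, and TGANTCA in that of Csgalnact2 alone and in 6.75%. A match of letters is a description and not a bound site.

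All 5 genes that supply sulfate and sugar precursors were lower in RFP-single than in GFP-single cells, and 3 of them, Slc26a2, Slc35d1 and Ugdh, were lower in double-positive than in GFP-single cells. Summed per kilobase of exon, the group had 10076 ± 3319 normalized counts in double-positive cells, 3447 ± 157 in RFP-single cells and 19607 ± 1410 in GFP-single cells (SD, n = 3 each). In bulk RNA of this kind, fewer cells that express a gene and less RNA per cell cannot be told apart.

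Papss2 (ENSMUSG00000024899, chr19:32595790-32667187, plus strand) encodes one of the enzymes that make PAPS, the donor of every sulfate in the pathway, and is the form long known in cartilage. It had 18037, 9078 and 21970.1 in double-positive cells, 920.2, 1159.6 and 1151 in RFP-single cells, and 31065, 34271 and 26154 in GFP-single cells. RFP-single libraries were far below all the others, and the double-positive libraries lay between the other populations without touching either. The log2 fold change was -0.98 ± 0.30 (adjusted p = 0.0658) in double-positive against GFP-single cells, which did not pass, -4.82 ± 0.30 (adjusted p = 4.96e-06) in RFP-single against GFP-single cells and 3.84 ± 0.30 (adjusted p = 7.03e-05) in double-positive against RFP-single cells. RFP-single cells were thus 28.3-fold below GFP-single cells, and double-positive cells 14.3-fold above RFP-single cells. The double-positive against GFP-single difference passed with DESeq2 (adjusted p = 0.0342), without double-positive cells of litter 5 at -1.24 (adjusted p = 0.0407), and with exon-length correction, chosen after seeing the data, at -1.05 (adjusted p = 0.0413).

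Papss1 encodes its partner with the same reaction. It had 9142, 7673 and 10483 in double-positive cells, 6347, 5673 and 5412 in RFP-single cells, and 10688, 10603 and 8157 in GFP-single cells. RFP-single libraries were lowest without overlap, and double-positive and GFP-single libraries overlapped. The change was -0.75 ± 0.20 (adjusted p = 0.0216) in RFP-single against GFP-single cells. Leaving out any RFP-single library, or the GFP-single library of litter 1 or 2, ended that call, with adjusted p up to 0.0908, and with quantile normalization the change was -0.48 (adjusted p = 0.157). In double-positive against RFP-single cells it was 0.64 ± 0.20 (adjusted p = 0.136), which passed at 0.64 without the GFP-single library of litter 5 (adjusted p = 0.0271), with DESeq2 (adjusted p = 0.0363) and in a fit of those 2 populations (adjusted p = 0.0463).

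Slc26a2 (ENSMUSG00000034320, chr18:61192919-61211612, minus strand) carries sulfate into the cell, and its loss causes human chondrodysplasias. It had 3145, 1781 and 6162 in double-positive cells, 944, 921 and 406 in RFP-single cells, and 13883, 15062 and 7702 in GFP-single cells. The 3 populations did not overlap, with RFP-single libraries lowest and GFP-single libraries highest. The log2 fold change was -1.85 ± 0.46 (adjusted p = 0.0332) in double-positive against GFP-single cells, -4.05 ± 0.46 (adjusted p = 0.000173) in RFP-single against GFP-single cells and 2.20 ± 0.46 (adjusted p = 0.0299) in double-positive against RFP-single cells. The first and the last of these did not pass with litter as a block, at adjusted p = 0.0522 and 0.0534. The first was also lost with edgeR (adjusted p = 0.0607), quantile normalization (adjusted p = 0.0725) and a fit of those 2 populations (adjusted p = 0.0571). Omitting either population's library of litter 1 or litter 2 also ended the first, and omitting any RFP-single library, or double-positive cells of litter 1 or 5, ended the last, with adjusted p up to 0.129 and 0.126.

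Ugdh oxidises UDP-glucose to UDP-glucuronic acid, a building block of both chains and of hyaluronan. It had 13259, 9529 and 20169.7 in double-positive cells, 7563, 7107 and 7656 in RFP-single cells, and 42335, 39645 and 46933 in GFP-single cells. GFP-single libraries were highest by a wide margin, and double-positive libraries all lay above RFP-single libraries. It was 3.14-fold lower in double-positive than in GFP-single cells, at -1.65 ± 0.25 (adjusted p = 0.00316), and 5.76-fold lower in RFP-single than in GFP-single cells, at -2.53 ± 0.25 (adjusted p = 7.31e-05). The change in double-positive against RFP-single cells, 0.88 ± 0.25 (adjusted p = 0.103), did not pass, but did with DESeq2 (adjusted p = 0.0163) and without double-positive cells of litter 2 (adjusted p = 0.0337). Gm43552 overlaps exons of Ugdh on the same strand, so part of its reads could have been assigned there.

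Slc35d1 moves UDP-glucuronic acid and UDP-N-acetylgalactosamine into the endoplasmic reticulum, and mice without it have short chondroitin sulfate chains. It had 2146, 1176 and 3826 in double-positive cells, 884, 689.7 and 745 in RFP-single cells, and 9044, 6499.6 and 6061 in GFP-single cells. Again the populations did not overlap. Log2 fold changes were -1.73 ± 0.36 (adjusted p = 0.0151), -3.20 ± 0.36 (adjusted p = 0.000161) and 1.47 ± 0.36 (adjusted p = 0.0575) for double-positive against GFP-single, RFP-single against GFP-single and double-positive against RFP-single cells, and the last did not pass. The first was lost in a fit of those 2 populations (adjusted p = 0.0502). The last passed with DESeq2, quantile normalization (adjusted p = 0.0443), a pseudocount of 5 (adjusted p = 0.0464) and length correction (adjusted p = 0.0319), without double-positive cells of litter 2 at 1.90 (adjusted p = 0.0118), and without GFP-single cells of litter 5 at 1.47 (adjusted p = 0.0401). In Papss2, Slc26a2, Ugdh and Slc35d1 the double-positive library of litter 2 was the lowest of its population and that of litter 5 the highest. The summed chondrocyte markers also differed among the double-positive libraries, by the range given above, and their part in these results was not tested.

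**Figure D2:**
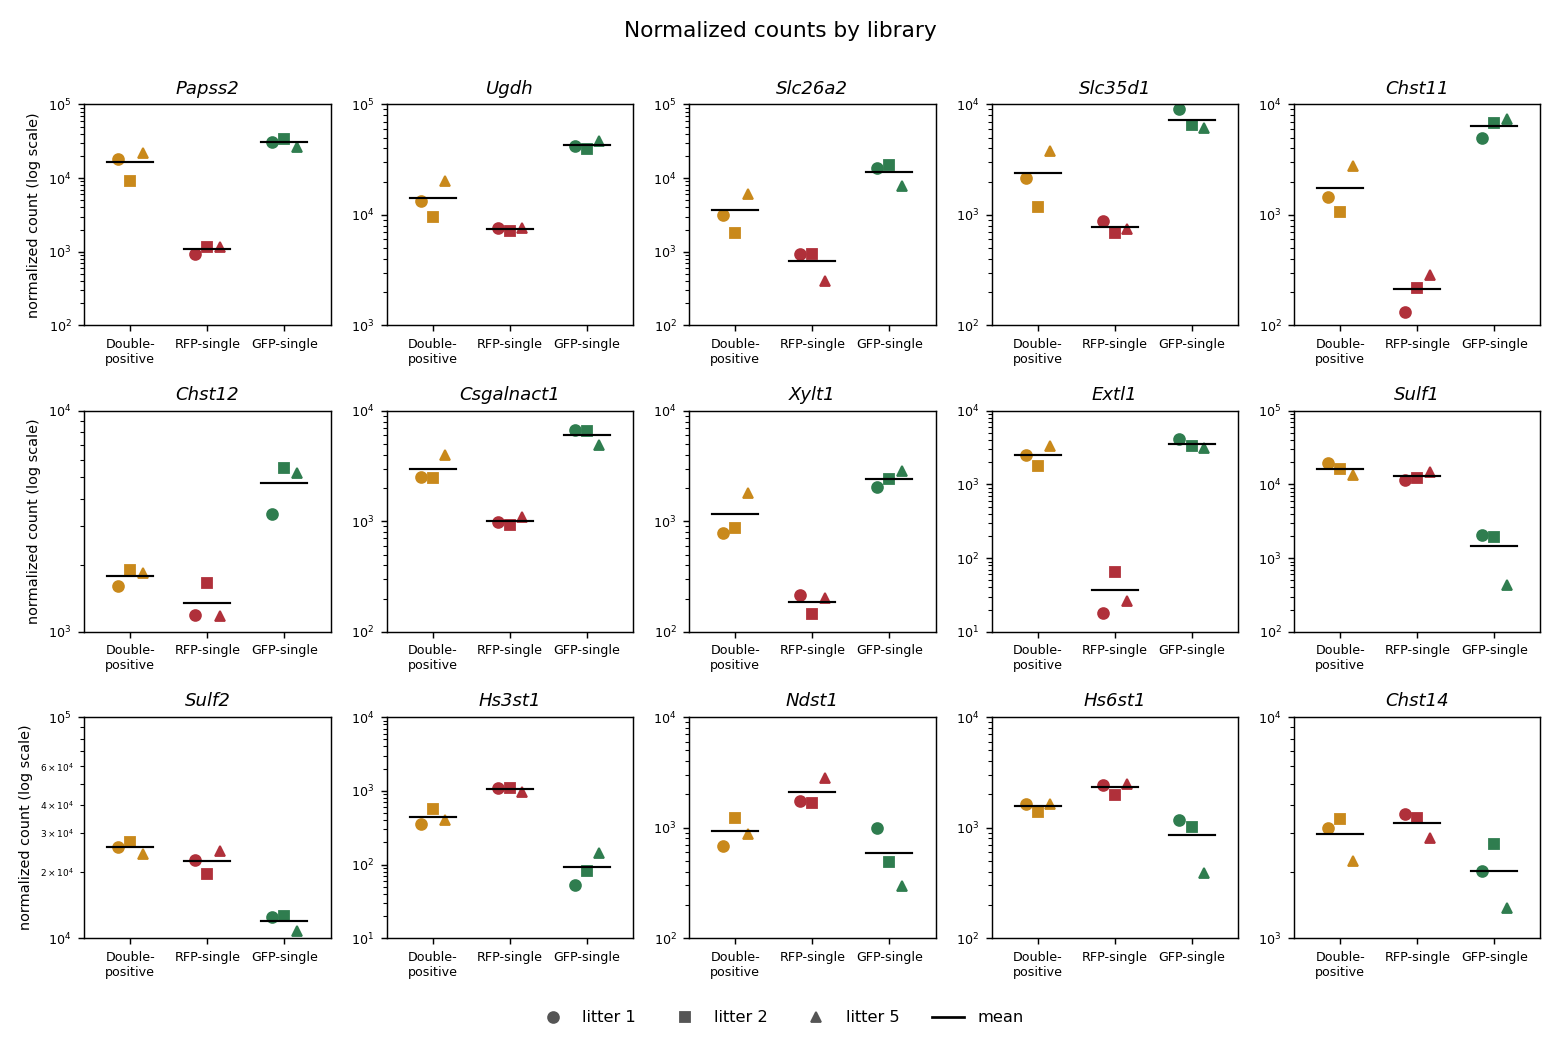
Normalized counts (y axis, log scale) of 15 members in each of the 9 libraries, with double-positive, RFP-single and GFP-single cells along the x axis, 1 point per library. Papss2, Slc26a2 and Chst11 are lowest in the RFP-single libraries, whereas Sulf1, Sulf2 and Hs3st1 lie lowest in GFP-single cells.

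The linker group had 1 member lower in double-positive than in GFP-single cells, 3 lower in RFP-single than in GFP-single cells, and between double-positive and RFP-single cells 1 was higher. These were 20.0%, 60.0% and 20.0% of the group, beside 8.29%, 20.3% and 2.85% of all genes. Xylt1 (ENSMUSG00000030657, chr7:117380979-117673580, plus strand) adds the xylose that opens the linker and is thought to set how many chains a core protein receives. It had 781, 871 and 1821 in double-positive cells, 214, 145 and 204 in RFP-single cells, and 2041, 2398 and 2833 in GFP-single cells. RFP-single libraries were lowest and GFP-single libraries highest, with no overlap among the 3 populations. RFP-single cells were 12.9-fold lower than GFP-single cells, at -3.69 ± 0.33 (adjusted p = 3.68e-05), and double-positive cells 5.78-fold higher than RFP-single cells, at 2.53 ± 0.33 (adjusted p = 0.00223). In double-positive against GFP-single cells it stood at -1.16 ± 0.33 (adjusted p = 0.0563) and did not pass, whereas with litter as a block it passed at an adjusted p of 0.0412, as it did with DESeq2 (adjusted p = 0.0237), with length correction (adjusted p = 0.0303) and without double-positive cells of litter 5 (adjusted p = 0.0155).

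Xylt2, which catalyses the same step, averaged 1859 ± 166 in double-positive cells, 2131 ± 423 in RFP-single cells and 1588 ± 658 in GFP-single cells (SD, n = 3 each), and its populations overlapped in every comparison. B3gat3 adds the glucuronic acid that completes the linker. It had 1677, 1529 and 1846 in double-positive cells, 1515, 1403 and 1285 in RFP-single cells, and 2732, 2589 and 3400.1 in GFP-single cells. GFP-single libraries were above all the others, at -0.78 ± 0.20 (adjusted p = 0.037) in double-positive against GFP-single cells and -1.05 ± 0.20 (adjusted p = 0.00412) in RFP-single against GFP-single cells. The first of these was lost without any one of the double-positive or RFP-single libraries or without the GFP-single library of litter 1, with adjusted p up to 0.135, and with no filter on low values, quantile normalization or a fit of those 2 populations alone. B4galt7, which adds the first galactose, was lower in RFP-single than in GFP-single cells at -0.84 ± 0.22 (adjusted p = 0.0185), which did not hold when RFP-single cells of litter 1 or of litter 5 were omitted (adjusted p up to 0.0888), and Gm15911 overlaps its exons on the other strand. B3galt6, which adds the second galactose, averaged 1352 ± 259 in double-positive cells, 1003 ± 242 in RFP-single cells and 1371 ± 139 in GFP-single cells and passed in no comparison.

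Of the 6 chondroitin chain members 1 passed in each comparison, which is 16.7% of the group. Among all genes 8.29% passed in double-positive against GFP-single, 20.3% in RFP-single against GFP-single and 2.85% in double-positive against RFP-single cells. The member that passed was Csgalnact1. It encodes the enzyme that adds the first N-acetylgalactosamine and so commits the linker to chondroitin sulfate. It had 2499.9, 2490.1 and 3989 in double-positive cells, 996, 919.5 and 1088 in RFP-single cells, and 6756, 6600.0 and 4895 in GFP-single cells. The 3 populations did not overlap. The log2 fold change was -1.05 ± 0.24 (adjusted p = 0.0226) in double-positive against GFP-single cells, -2.59 ± 0.24 (adjusted p = 4.25e-05) in RFP-single against GFP-single cells and 1.55 ± 0.24 (adjusted p = 0.00566) in double-positive against RFP-single cells. Omitting either population's library of litter 1 or litter 2 ended the first of these, with adjusted p up to 0.101, as did quantile normalization (adjusted p = 0.0622) and a fit of those 2 populations (adjusted p = 0.0733). The other 5 members of the group did not pass in any of the 3 comparisons. Chsy1 and Chsy3, the chondroitin synthases, averaged 2979 ± 878 in double-positive cells, 2322 ± 1152 in RFP-single cells and 3067 ± 876 in GFP-single cells, and 532 ± 176 in double-positive cells, 528 ± 212 in RFP-single cells and 654 ± 375 in GFP-single cells, in that order of genes. Chpf and Chpf2, which work with the synthases to lengthen the chain, averaged 7207 ± 748 in double-positive cells, 7341 ± 1759 in RFP-single cells and 9082 ± 3618 in GFP-single cells, and 2372 ± 775 in double-positive cells, 1882 ± 107 in RFP-single cells and 3503 ± 1864 in GFP-single cells. Csgalnact2 averaged 1013 ± 254 in double-positive cells, 924 ± 212 in RFP-single cells and 1357 ± 592 in GFP-single cells. Without the GFP-single library of litter 5, Chpf2 passed in double-positive against GFP-single cells at -0.99 (adjusted p = 0.0257) and in RFP-single against GFP-single cells at -1.28 (adjusted p = 0.00373), and Csgalnact2 in RFP-single against GFP-single cells at -0.90 (adjusted p = 0.0307). Chsy3, at -0.13 and -0.17 in double-positive and RFP-single against GFP-single cells, stood at -0.73 and -0.77 without it and did not pass. Smarcd3 overlaps Chpf2 and Gm26827 overlaps Chsy1 on the opposite strand.

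Among the 7 chondroitin sulfotransferases, Chst11, Chst12 and Chst15 were lower than in GFP-single cells in both double-positive and RFP-single cells, and Chst11 alone was higher in double-positive than in RFP-single cells. These were 42.9%, 42.9% and 14.3% of the group, beside 8.29%, 20.3% and 2.85% of all genes. Chst11 (ENSMUSG00000034612, chr10:82985498-83195900, plus strand) is the main 4-O-sulfotransferase of chondroitin in cartilage, and mice without it have a severe chondrodysplasia. It had 1447, 1052 and 2754 in double-positive cells, 133, 216 and 287 in RFP-single cells, and 4990.3, 6823 and 7351 in GFP-single cells. Its GFP-single libraries all exceeded its double-positive libraries, which all exceeded its RFP-single libraries. It was 3.91-fold lower in double-positive than in GFP-single cells, at -1.97 ± 0.38 (adjusted p = 0.0102), and 31.1-fold lower in RFP-single than in GFP-single cells, at -4.96 ± 0.38 (adjusted p = 1.28e-05). It was 7.95-fold higher in double-positive than in RFP-single cells, at 2.99 ± 0.38 (adjusted p = 0.00159).

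Chst12, a second chondroitin 4-O-sulfotransferase, had 1608, 1896 and 1853 in double-positive cells, 1196, 1666 and 1180.2 in RFP-single cells, and 3421, 5525 and 5230.3 in GFP-single cells. GFP-single libraries were highest, and double-positive and RFP-single libraries overlapped. The changes were -1.38 ± 0.24 (adjusted p = 0.00688) and -1.80 ± 0.24 (adjusted p = 0.000499) against GFP-single cells, for double-positive and RFP-single cells in that order. Chst15, which adds a second sulfate to 4-sulfated units to form chondroitin sulfate E, had 349, 649 and 599.6 in double-positive cells, 583, 444 and 581 in RFP-single cells, and 2020.3, 1349 and 825 in GFP-single cells. Its changes were -1.35 ± 0.36 (adjusted p = 0.0414) in double-positive and -1.30 ± 0.36 (adjusted p = 0.0253) in RFP-single cells, each against GFP-single cells. The first call was lost without any one library other than the GFP-single library of litter 5 (adjusted p up to 0.145) and with litter as a block (adjusted p = 0.0626), TMM scaling (adjusted p = 0.0533), no filter on low values (adjusted p = 0.0583) and a fit of those 2 populations (adjusted p = 0.101). The second was lost without any RFP-single library or the GFP-single library of litter 1 or 2 (adjusted p up to 0.0877). Gm10584 overlaps Chst15 on the opposite strand.

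The other chondroitin sulfotransferases did not pass. Chst3, the main 6-O-sulfotransferase, had 539, 563 and 471 in double-positive cells, 193, 226 and 491 in RFP-single cells, and 264, 163 and 32.6 in GFP-single cells. Double-positive libraries were all above GFP-single libraries, at 2.21 ± 0.65 (adjusted p = 0.0608), which missed the threshold. DESeq2 called it higher (adjusted p = 0.0274), and length correction did so at 2.03 (adjusted p = 0.0489), and it passed at 2.82 without GFP-single cells of litter 1 (adjusted p = 0.0247). Without the GFP-single library of litter 5, its lowest, the change was 1.33 ± 0.40 (adjusted p = 0.0719). The RFP-single against GFP-single change, 1.30 ± 0.65 (adjusted p = 0.181), was 0.42 without it. Chst7, a second 6-O-sulfotransferase, averaged 101 ± 18.3 in double-positive cells, 78.7 ± 49.6 in RFP-single cells and 97.5 ± 19.0 in GFP-single cells. Ust, which sulfates uronic acid, averaged 598 ± 92.4 in double-positive cells, 972 ± 145 in RFP-single cells and 776 ± 296 in GFP-single cells. Chst13, another 4-O-sulfotransferase, was near the detection limit in the red populations, with 30 reads over the 3 double-positive libraries and 19 over the RFP-single libraries. It had 158 over the GFP-single libraries, which varied widely, at 37.9 ± 40.5 normalized counts per kilobase of exon (SD). Its changes against GFP-single cells were -3.05 (adjusted p = 0.192) in double-positive and -3.20 (adjusted p = 0.121) in RFP-single cells.

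None of the 3 dermatan sulfate members passed in any comparison with limma or with edgeR. DESeq2 called 1 of them, Dsel, higher in RFP-single than in GFP-single cells, as did limma with a filter at a mean of 50 (adjusted p = 0.0473) and without RFP-single cells of litter 2 (adjusted p = 0.0473) or GFP-single cells of litter 1 (adjusted p = 0.0372), and 2 had an unadjusted limma p under 0.05 there and 1 in double-positive against RFP-single cells. Dse and Dsel, the epimerases that turn glucuronic into iduronic acid, averaged 3493 ± 559 in double-positive cells, 4107 ± 872 in RFP-single cells and 2949 ± 1487 in GFP-single cells, and 935 ± 177 in double-positive cells, 1491 ± 350.4 in RFP-single cells and 827 ± 207 in GFP-single cells, in that order of genes. Chst14, the dermatan 4-O-sulfotransferase, had 3158, 3469 and 2241 in double-positive cells, 3637, 3482 and 2843 in RFP-single cells, and 2014, 2671 and 1374 in GFP-single cells. In RFP-single against GFP-single cells it was 0.76 ± 0.27 (adjusted p = 0.0712) with no overlap, and it passed there with litter as a block (adjusted p = 0.0296), quantile normalization (adjusted p = 0.0493) and without GFP-single cells of litter 2 (adjusted p = 0.0308).

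Chain growth of heparan sulfate showed a single large difference, in 1 of 5 members. That share, 20.0%, stood beside 20.3% of all genes in RFP-single against GFP-single and 2.85% in double-positive against RFP-single cells. With limma none of the group passed in double-positive against GFP-single cells, where 8.29% of all genes did. Extl1 (ENSMUSG00000028838, chr4:134356372-134383850, minus strand), a relative of the exostosins with N-acetylglucosamine transferase activity, had 2549, 1764 and 3326 in double-positive cells, 18.3, 64.5 and 26.6 in RFP-single cells, and 4121, 3296 and 3084 in GFP-single cells. RFP-single cells held 100 reads in all, against 9364 in double-positive and 9950 in GFP-single cells. Double-positive and GFP-single libraries overlapped. It was 106-fold lower in RFP-single than in GFP-single cells, at -6.73 ± 0.42 (adjusted p = 4.96e-06), and 75.4-fold higher in double-positive than in RFP-single cells, at 6.24 ± 0.42 (adjusted p = 5.04e-05). These were the largest folds among the 42 members in both comparisons, but without the GFP-single library of litter 5 the RFP-single against GFP-single change of Ndst3, at 7.15, exceeded that of Extl1, at -6.82, in size.

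Ext1 and Ext2, the subunits of the heparan sulfate polymerase, missed the threshold with limma, with opposite signs, while DESeq2 called both in double-positive against GFP-single cells. Ext1 had 3454, 3161 and 3676 in double-positive cells, 2521, 2477 and 2965 in RFP-single cells, and 2322, 2228 and 1175 in GFP-single cells. Double-positive libraries were all above GFP-single libraries, at 0.91 ± 0.26 (adjusted p = 0.0579), and RFP-single libraries were too, at 0.54 ± 0.26 (adjusted p = 0.174). Ext2 had 6315, 6282 and 7472 in double-positive cells, 7557, 7156 and 7558 in RFP-single cells, and 11753, 12053 and 8009 in GFP-single cells. Double-positive libraries were all below GFP-single libraries, at -0.65 ± 0.20 (adjusted p = 0.0758), and so were RFP-single libraries, at -0.49 ± 0.20 (adjusted p = 0.114). With the GFP-single library of litter 5 omitted, Ext1 passed as higher in double-positive cells at 0.59 (adjusted p = 0.0390) and stood at 0.22 in RFP-single cells (adjusted p = 0.359). Ext1 also passed in double-positive cells without the GFP-single library of litter 1 (1.08, adjusted p = 0.0423), with quantile normalization (adjusted p = 0.0266) and with length correction (adjusted p = 0.0333). With the GFP-single library of litter 5 left out, Ext2 passed as lower in both comparisons, at -0.84 and -0.68 (adjusted p = 0.00492 and 0.00548). Extl2 and Extl3, which act where the heparan sulfate chain begins, averaged 1169 ± 176 in double-positive cells, 1037 ± 139 in RFP-single cells and 1221 ± 489 in GFP-single cells, and 1333 ± 177 in double-positive cells, 1727 ± 263 in RFP-single cells and 1047 ± 370.2 in GFP-single cells, in that order of genes, and neither passed.

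Of the 9 enzymes that modify heparan sulfate, 3 passed as higher in double-positive than in GFP-single cells, Ndst3, Ndst4 and Hs3st1. In RFP-single against GFP-single cells 5 did, Ndst1, Ndst3, Ndst4, Hs6st1 and Hs3st1, and none passed as lower in either comparison. The 3 and the 5 were 33.3% and 55.6% of the group, beside 8.29% and 20.3% of all genes. Ndst3 and Ndst4 had a mean under 10 in GFP-single cells. They met the filter only through the populations where they were high, so their calls add no support for the group. All 9 log2 fold changes were above 0 in both comparisons with all libraries, and 8 of 9 without the GFP-single library of litter 5, where Glce stood at -0.28 and -0.15 in double-positive and RFP-single cells. The median of the 9 was 1.01 in double-positive and 1.57 in RFP-single cells against GFP-single cells. Without the GFP-single library of litter 5 these medians were 0.52 and 1.08, and again 3 and 5 members passed. All these counts and medians include Ndst3 and Ndst4, whose changes were the largest of the 9 in both comparisons. Apart from them, Hs3st1 passed in double-positive cells, and Ndst1, Hs6st1 and Hs3st1 in RFP-single cells, with and without that library. With all libraries, the changes of the remaining enzymes ran from 0.25 to 2.33 in double-positive and from 0.38 to 3.60 in RFP-single cells. Per kilobase of exon the group summed to 1952 ± 135 in double-positive cells, 2502 ± 149 in RFP-single cells and 1158 ± 508 in GFP-single cells (SD, n = 3 each), where the GFP-single libraries stood at 1462, 1442 and 572.

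Hs3st1 places the 3-O-sulfate that makes the antithrombin-binding site of heparan sulfate. It had 351, 572 and 399 in double-positive cells, 1083, 1094 and 962 in RFP-single cells, and 52.1, 82.0 and 144 in GFP-single cells. RFP-single libraries were highest, GFP-single libraries lowest, and no populations overlapped. It was 5.02-fold higher in double-positive than in GFP-single cells, at 2.33 ± 0.37 (adjusted p = 0.0043), and 12.1-fold higher in RFP-single than in GFP-single cells, at 3.60 ± 0.37 (adjusted p = 9.96e-05). In double-positive against RFP-single cells it was -1.28 ± 0.37 (adjusted p = 0.112) and did not pass. It passed there as lower with DESeq2 (adjusted p = 0.0191) and with length correction (adjusted p = 0.0479), in a fit of those 2 populations (adjusted p = 0.0188) and without GFP-single cells of litter 5 (adjusted p = 0.0230).

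The 4 Ndst enzymes replace N-acetyl groups by N-sulfate, which opens the chain to the later modifications. Ndst1, the widely expressed form, had 686, 1226 and 871 in double-positive cells, 1743, 1684 and 2822 in RFP-single cells, and 984, 486 and 296 in GFP-single cells. RFP-single libraries were above all the others, at 1.96 ± 0.41 (adjusted p = 0.00677) against GFP-single cells, and double-positive and GFP-single libraries overlapped. In double-positive against RFP-single cells Ndst1 was -1.17 ± 0.41 (adjusted p = 0.198), and passed as lower in a fit of those 2 populations (adjusted p = 0.0469). Ndst2 averaged 1199 ± 134 in double-positive cells, 1212 ± 185 in RFP-single cells and 893 ± 604 in GFP-single cells and did not pass. Its changes, 0.69 and 0.70 in double-positive and RFP-single against GFP-single cells, were 0.079 and 0.088 without GFP-single cells of litter 5, and the RFP-single one passed at 1.22 without GFP-single cells of litter 2 (adjusted p = 0.0456). Ndst3 and Ndst4 were rare transcripts. Ndst3 had 90.3, 117 and 47.1 in double-positive cells, 111, 215 and 116 in RFP-single cells, and 0, 0 and 13.6 in GFP-single cells, with 307 reads in double-positive, 419 in RFP-single and 10 in GFP-single cells. It was higher in double-positive and in RFP-single cells than in GFP-single cells, at 5.04 ± 0.96 (adjusted p = 0.00998) and 5.86 ± 0.96 (adjusted p = 0.00164). Ndst4 had 63.4, 15.6 and 89.0 in double-positive cells, 76.2, 250.3 and 68.6 in RFP-single cells, and 4.13, 0 and 8.14 in GFP-single cells, with 205, 370 and 11 reads in double-positive, RFP-single and GFP-single cells. It was higher at 3.67 ± 0.96 (adjusted p = 0.0397) and 4.94 ± 0.96 (adjusted p = 0.00443).

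At such low counts the sizes of these changes depend on single libraries. Without the GFP-single library of litter 1, 2 or 5, the change of Ndst3 was 4.40, 4.40 and 6.33 in double-positive and 5.21, 5.21 and 7.15 in RFP-single against GFP-single cells. Its double-positive call was lost when double-positive cells of litter 2 were omitted, at an adjusted p of 0.0502. The change of Ndst4 was 4.40 in double-positive against GFP-single cells when double-positive cells of litter 2 were omitted, and 2.74 and 4.34 without the GFP-single library of litter 2 and of litter 5. In RFP-single against GFP-single cells it was 4.34 without the RFP-single library of litter 2, and 4.01 and 5.61 without the GFP-single library of litter 2 and of litter 5. The double-positive call of Ndst4 was lost under 14 of 21 alternatives, including edgeR and every omission of a library other than the double-positive library of litter 2 and the GFP-single library of litter 5.

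Hs6st1 and Hs6st2 add the 6-O-sulfates that fibroblast growth factor receptors and other partners recognise. Hs6st1 had 1652, 1394 and 1644 in double-positive cells, 2454, 1979 and 2502 in RFP-single cells, and 1169, 1012 and 389 in GFP-single cells. RFP-single libraries were highest and GFP-single libraries lowest, with no overlap. It was higher in RFP-single than in GFP-single cells, at 1.57 ± 0.36 (adjusted p = 0.0102), and did not pass in double-positive cells, at 1.01 ± 0.36 (adjusted p = 0.109). Gm37335 overlaps it on the opposite strand. Hs6st2 had 4183, 3136 and 2925 in double-positive cells, 3711, 2836 and 3343 in RFP-single cells, and 2343, 1943 and 619 in GFP-single cells, with every GFP-single library below all others, and reached 1.26 ± 0.41 (adjusted p = 0.0875) in double-positive and 1.21 ± 0.41 (adjusted p = 0.0607) in RFP-single against GFP-single cells, neither of which passed. With litter as a block it passed in RFP-single against GFP-single cells (adjusted p = 0.0422), as with quantile normalization (adjusted p = 0.0340) and without GFP-single cells of litter 2 at 1.44 (adjusted p = 0.0471). Without GFP-single cells of litter 1 both passed, at 1.62 and 1.58 (adjusted p = 0.0374 and 0.0220), whereas without those of litter 5, the lowest, they were 0.66 and 0.62 (adjusted p = 0.0682 and 0.0520). Hs2st1, the 2-O-sulfotransferase, averaged 3051 ± 209.6 in double-positive cells, 2935 ± 486 in RFP-single cells and 1914 ± 738 in GFP-single cells, and Glce, the epimerase of heparan sulfate, averaged 1874 ± 558 in double-positive cells, 1992 ± 60.4 in RFP-single cells and 1716 ± 866 in GFP-single cells, and neither passed. Without GFP-single cells of litter 1, Hs2st1 passed at 1.02 in double-positive and 0.95 in RFP-single against GFP-single cells (adjusted p = 0.0433 and 0.0305). In double-positive against RFP-single cells limma and edgeR called 0 of the 9, 2 had an unadjusted limma p under 0.05, and DESeq2 called Hs3st1.

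Both extracellular sulfatases were higher in the populations sorted for red. Among all genes, 5.27% were higher in double-positive and 11.8% higher in RFP-single than in GFP-single cells. Sulf1 and Sulf2 remove 6-O-sulfates from heparan sulfate outside the cell and so change which growth factors it holds. Sulf1 (ENSMUSG00000016918, chr1:12692277-12861192, plus strand) had 19565, 16076 and 13476 in double-positive cells, 11483, 12144 and 14932 in RFP-single cells, and 2039, 1911 and 429 in GFP-single cells. All GFP-single libraries were far below the others, and double-positive and RFP-single libraries overlapped. It was 13.6-fold higher in double-positive than in GFP-single cells, at 3.77 ± 0.48 (adjusted p = 0.00149), and 10.8-fold higher in RFP-single than in GFP-single cells, at 3.43 ± 0.48 (adjusted p = 0.000643). Without the GFP-single library of litter 5, the lowest of all 9, these changes were 3.03 ± 0.18 and 2.69 ± 0.18 (adjusted p = 6.95e-05 and 2.96e-05).

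Sulf2 (ENSMUSG00000006800, chr2:166073089-166155663, minus strand) had 25834, 27234 and 24150.4 in double-positive cells, 22567, 19599 and 24858 in RFP-single cells, and 12523, 12645 and 10820.2 in GFP-single cells. GFP-single libraries were lowest without overlap. The changes were 1.10 ± 0.18 (adjusted p = 0.00452) in double-positive and 0.89 ± 0.18 (adjusted p = 0.00532) in RFP-single cells, each against GFP-single cells. The difference between double-positive and RFP-single cells was 0.34 ± 0.48 (adjusted p = 0.918) for Sulf1 and 0.21 ± 0.18 (adjusted p = 0.779) for Sulf2, and neither passed. Exons of Ncoa3 overlap Sulf2 on the opposite strand. The pair summed to 5834 ± 458 normalized counts per kilobase in double-positive cells, 4943 ± 576 in RFP-single cells and 2173 ± 253 in GFP-single cells (SD, n = 3 each).

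Markers of other cell types moved with the same gates. Among all genes, 8.29% passed in double-positive against GFP-single and 20.3% in RFP-single against GFP-single cells. Skeletal muscle markers summed to 991, 2548 and 2825 in the lowest, middle and highest double-positive library, 7959, 24460.4 and 31436 in RFP-single libraries and 589, 1022 and 1469 in GFP-single libraries, and 7 of 7 were higher in RFP-single than in GFP-single cells. Leukocyte markers summed to 1828, 5184 and 12295 in double-positive, 1071, 1795 and 3429 in RFP-single and 58.7, 239 and 311 in GFP-single libraries, with 6 of 8 higher in double-positive and 5 of 8 higher in RFP-single than in GFP-single cells. Endothelial markers summed to 825, 2315 and 4190.4 in double-positive, 3891, 4856 and 4946 in RFP-single and 375, 786 and 976 in GFP-single libraries, with 2 of 7 and 5 of 7 higher than in GFP-single cells. Tendon markers summed to 8854, 10110.3 and 16787 in double-positive, 19458, 22666 and 22979 in RFP-single and 2236, 2308 and 3193 in GFP-single libraries, with 5 of 5 higher in both. Pericyte and smooth muscle markers summed to 8767, 11286 and 17019.7 in double-positive, 8611, 12502 and 12863 in RFP-single and 13376, 14526 and 16345 in GFP-single libraries, so RFP-single sums lay below GFP-single sums. Of these 6 markers, 2 were higher in double-positive cells and 5 higher and 1 lower in RFP-single cells than in GFP-single cells. Of 6 Schwann cell and neuron markers, double-positive cells had 1 higher and 1 lower than GFP-single cells and RFP-single cells had 2 higher and 2 lower. Of 5 erythroid markers 1 was higher in RFP-single than in GFP-single cells (20.0%, next to 20.3% of all genes). No marker of these lists was at 0 over a whole population. Chondrocyte markers were lower than in GFP-single cells for 6 of 8 in double-positive and 8 of 8 in RFP-single cells. The part of any of these cell types in the differences of the 42 members was not tested.

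The order of the members by level per kilobase of exon changed with the population. Papss2 led in double-positive cells, at 4397 ± 1776 normalized counts per kilobase, next to Sulf2 at 4384 ± 263, and these differ by less than their spread. Sulf2 led in RFP-single cells, at 3805 ± 449, ahead of Chpf at 1904 ± 456 and Papss1 at 1903 ± 158, which do not differ beyond their spread. Papss2 led in GFP-single cells, at 8196 ± 1099, ahead of Ugdh at 6364 ± 546 and Papss1 at 3215 ± 471 (SD, n = 3 each). Sulf2 stood at 2043 ± 174 there. Among the lowest, Chst13 at 4.59 ± 4.33 and Ndst4 at 4.78 ± 3.18 in double-positive cells, Chst13 at 4.59 ± 5.73 and Extl1 at 8.42 ± 5.69 in RFP-single cells, and Ndst4 at 0.349 ± 0.347 and Ndst3 at 0.458 ± 0.793 in GFP-single cells did not differ beyond their spread.

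**Figure D3:**
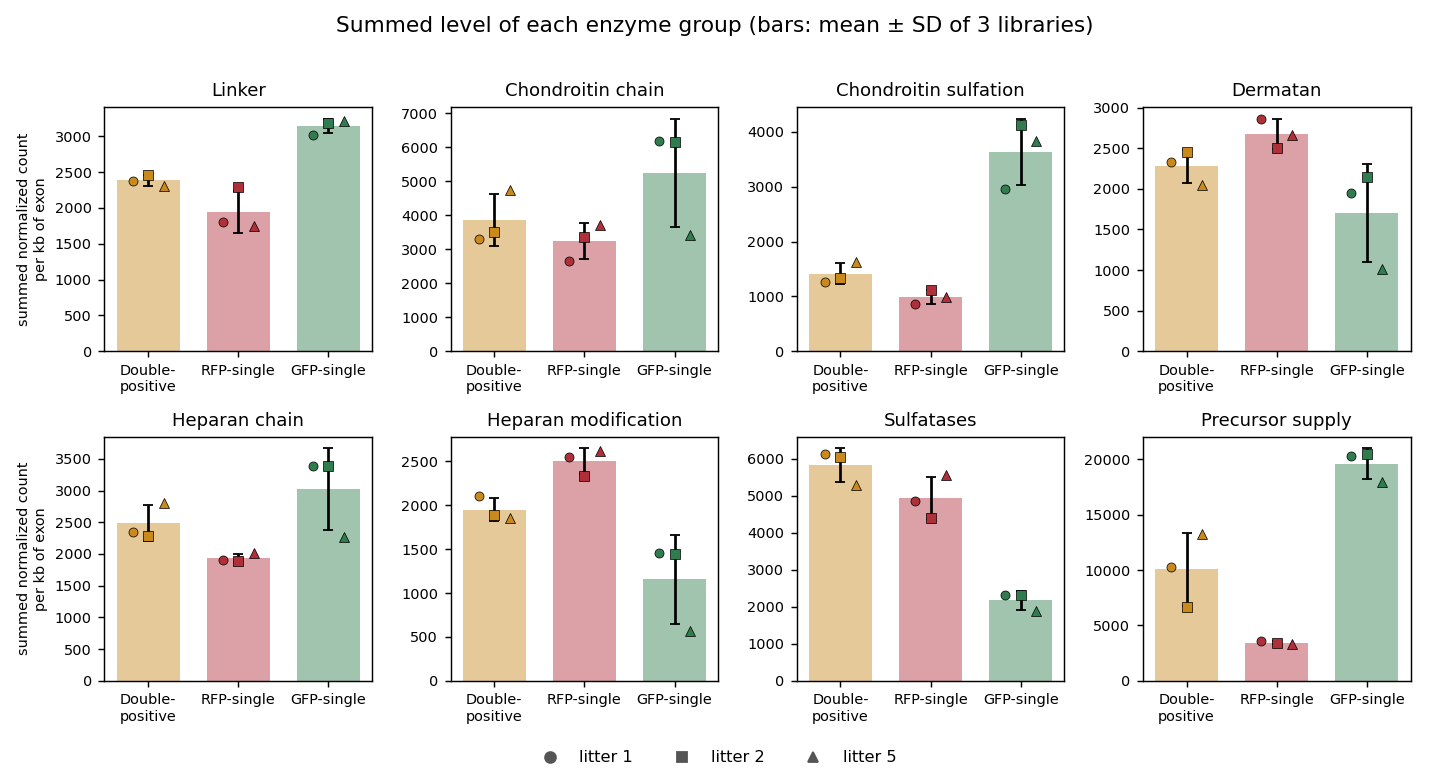
Normalized counts per kilobase of exon summed over the members of each of the 8 roles (y axis), for double-positive, RFP-single and GFP-single cells from left to right, with bars for the mean ± SD of 3 libraries and points for the libraries. Precursor supply stands at 10076, 3447 and 19607 and the sulfatases at 5834, 4943 and 2173 in that order of populations.

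Chondroitin sulfotransferases summed to 1412 ± 194 in double-positive, 985 ± 130 in RFP-single and 3637 ± 604 in GFP-single cells. Chondroitin chain enzymes summed to 3854 ± 770 in double-positive, 3236 ± 534 in RFP-single and 5251 ± 1596 in GFP-single cells, and linker enzymes to 2385 ± 76.5, 1943 ± 298 and 3142 ± 103 in the same order. Dermatan enzymes summed to 2278 ± 205 in double-positive, 2672 ± 184 in RFP-single and 1702 ± 605 in GFP-single cells. Heparan polymerases and relatives summed to 2484 ± 284, 1936 ± 65.5 and 3018 ± 649 in that order (SD, n = 3 each). By litter, GFP-single sums were 6187, 6158 and 3408 for chondroitin chain enzymes and 1942, 2150 and 1014 for dermatan enzymes. For heparan polymerases and relatives they were 3393, 3393 and 2269. The GFP-single library of litter 5 was thus lowest in these groups. In the first and last it lay below the double-positive library of litter 5, at 4737 and 2810. Between double-positive and GFP-single cells the libraries of 10 members lay wholly higher and of 13 wholly lower, where 14.3% and 13.8% of all genes did. Between RFP-single and GFP-single cells this held for 12 and 14 members, against 20.9% and 18.5%. Between double-positive and RFP-single cells it held for 11 and 5 members, against 11.2% and 12.6%.

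Partner enzymes that share or compete for a reaction were compared as log2 ratios within each library, which do not depend on how the library was scaled. The 12 pairs in 3 comparisons gave 36 exact two-sided permutation tests. With 3 libraries against 3 the smallest p is 0.1, so no ratio could pass, and after adjustment over the 36 the smallest was 0.15. In 24 of the 36 the libraries did not overlap. How often this holds for other pairs of genes was not measured, and the 36 tests reuse the same 9 libraries, so the count is a description. Papss2 over Papss1 stood at 0.76 ± 0.45 in double-positive, -2.44 ± 0.30 in RFP-single and 1.64 ± 0.09 in GFP-single cells (SD, n = 3 each). Papss2 thus had the higher count in the first and last and Papss1 in RFP-single cells. These ratios are not corrected for exon length, which is 3721 bases for Papss2 and 3053 for Papss1. Xylt1 over Xylt2 stood at -0.79 ± 0.71, -3.50 ± 0.58 and 0.70 ± 0.87 in the same order of populations. Csgalnact1 over Csgalnact2 stood at 1.55 ± 0.13, 0.14 ± 0.36 and 2.27 ± 0.51.

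The balance of chondroitin and dermatan 4-O-sulfotransferases, Chst11 over Chst14, was -0.85 ± 1.04 in double-positive, -4.02 ± 0.73 in RFP-single and 1.69 ± 0.63 in GFP-single cells (SD, n = 3 each). Ext1 over Ext2 was -0.96 ± 0.08, -1.49 ± 0.12 and -2.51 ± 0.22 in the same order, with no overlap among the populations, so that double-positive cells had the most Ext1 for their Ext2. Sulf1 over Sulf2 was -0.67 ± 0.23, -0.80 ± 0.15 and -3.33 ± 1.15, and only the 2 comparisons with GFP-single cells were free of overlap. Its GFP-single libraries stood at -2.62, -2.73 and -4.65, and exon length is 11294 bases for Sulf1 and 5871 for Sulf2. The differences from GFP-single cells, 2.66 in double-positive and 2.53 in RFP-single cells, were at the lowest 2.00 and 1.87 when 1 library was left out. Chsy1 over Ext1, which sets chondroitin against heparan polymerisation, was -0.24 ± 0.35, -0.30 ± 0.54 and 0.71 ± 0.70, and its populations overlapped in all 3 comparisons.

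**Figure D4:**
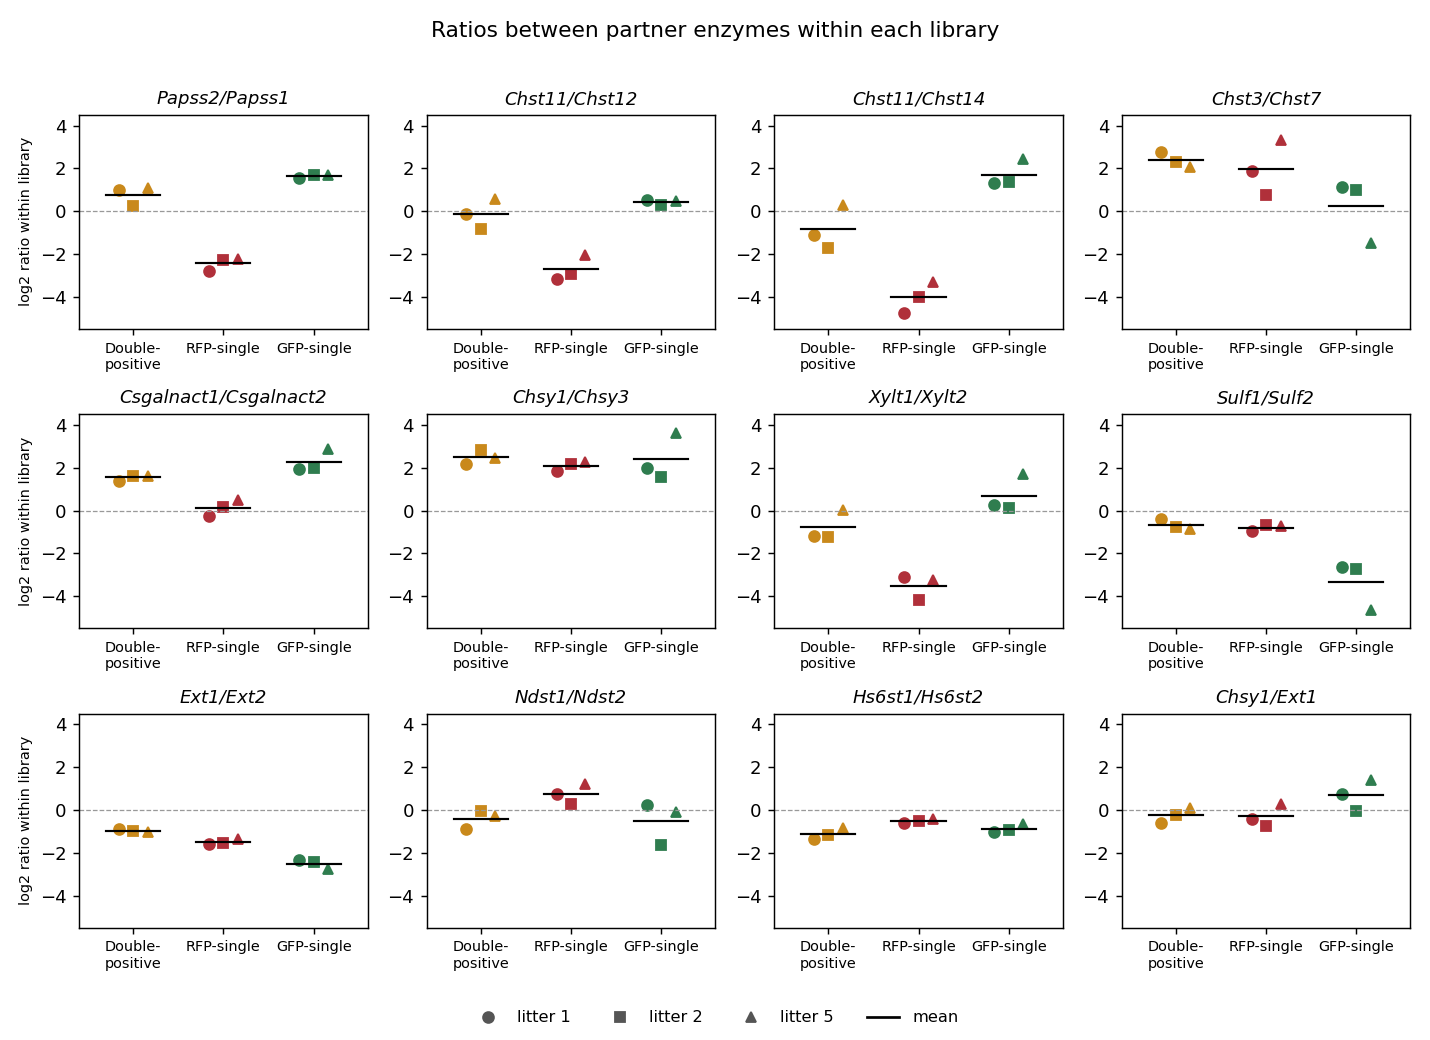
Log2 ratio of 2 partner transcripts within each library (y axis) for 12 pairs, in double-positive, RFP-single and GFP-single cells from left to right, 1 point per library and a line at the mean. Papss2 over Papss1 lies near -2.44 in RFP-single cells and above 0 in the other populations, and Ext1 over Ext2 is highest in double-positive and lowest in GFP-single cells.

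Other genes of the pathway were read from lists around the members. Their counts stand beside the shares of all genes that passed. These were 8.29% in double-positive against GFP-single, 20.3% in RFP-single against GFP-single and 2.85% in double-positive against RFP-single cells. Of 14 genes for sugar precursors and PAPS handling, 4 were lower in double-positive and 9 lower in RFP-single than in GFP-single cells, and 2 were higher in double-positive than in RFP-single cells. Its median log2 fold changes were -0.67 in double-positive against GFP-single, -1.04 in RFP-single against GFP-single and 0.28 in double-positive against RFP-single cells in the 3 comparisons, beside the medians of all genes given above. Slc35b2, which carries PAPS into the Golgi, averaged 6687 ± 710.4 in double-positive cells, 4467 ± 359 in RFP-single cells and 17871 ± 4649 in GFP-single cells (SD, n = 3 each), at -1.39 ± 0.22 (adjusted p = 0.00381) and -1.97 ± 0.22 (adjusted p = 0.000145) against GFP-single cells. Gfpt2, an enzyme that opens the hexosamine pathway, was lower in RFP-single than in GFP-single cells at -2.20 ± 0.30 (adjusted p = 0.000494), and double-positive cells exceeded RFP-single cells at 1.26 ± 0.30 (adjusted p = 0.0474). Pgm3, a later enzyme of that pathway, was lower in both red populations, at -1.12 ± 0.18 (adjusted p = 0.00452) and -1.05 ± 0.18 (adjusted p = 0.00225).

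Of the 15 tested among 17 further sulfotransferases and modifiers, 3 were higher and 3 lower in double-positive than in GFP-single cells, 5 higher and 3 lower in RFP-single than in GFP-single cells, and none differed between double-positive and RFP-single cells with limma or edgeR. There, 3 had an unadjusted limma p under 0.05 in each direction and DESeq2 called 3 higher. The medians were 0.45 in double-positive against GFP-single, 0.47 in RFP-single against GFP-single and -0.42 in double-positive against RFP-single cells. Hs3st6, a 3-O-sulfotransferase, averaged 24.1 ± 11.6 in double-positive cells, 32.9 ± 15.0 in RFP-single cells and 276 ± 48.5 in GFP-single cells and was lower at -3.54 ± 0.53 (adjusted p = 0.00282) and -3.12 ± 0.53 (adjusted p = 0.00188) in double-positive and RFP-single cells. Hs3st2 had no read in GFP-single cells and averaged 20.7 ± 8.01 in double-positive and 33.9 ± 16.8 in RFP-single cells. That is at least 18.2-fold and 29.9-fold higher when GFP-single cells are set to 3 reads over their 3 libraries. Hs3st2 met the filter on the mean only through the red populations, so its calls, which the counts of higher genes include, add no support for the list. Hs3st5 was higher in both red populations, at 3.78 ± 0.85 (adjusted p = 0.0207) and 4.58 ± 0.85 (adjusted p = 0.00322). Pxylp1, which removes the phosphate from the linker xylose, was lower in RFP-single than in GFP-single cells at -2.08 ± 0.31 (adjusted p = 0.000906).

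Of 13 chondroitin and dermatan sulfate core proteins, 1 was higher and 2 lower in double-positive than in GFP-single cells, 3 higher and 5 lower in RFP-single than in GFP-single cells, and 4 higher and none lower in double-positive than in RFP-single cells, where limma gave 3 as lower at an unadjusted p under 0.05, edgeR 0 and DESeq2 1. The medians were 0.70 in double-positive against GFP-single, 0.76 in RFP-single against GFP-single and 0.63 in double-positive against RFP-single cells. Versican, encoded by Vcan, averaged 7991 ± 2230.4 in double-positive cells, 6933 ± 1978 in RFP-single cells and 1753 ± 566 in GFP-single cells and was higher in both red populations, at 2.21 ± 0.32 (adjusted p = 0.00256) and 2.00 ± 0.32 (adjusted p = 0.00136). Aggrecan, encoded by Acan, averaged 14737 ± 9374 in double-positive cells, 211 ± 150.2 in RFP-single cells and 50701 ± 9545 in GFP-single cells and was lower in RFP-single than in GFP-single cells at -8.38 ± 0.69 (adjusted p = 1.84e-05). Col9a2 and Epyc, which encode a collagen IX chain and epiphycan, were lower in double-positive than in GFP-single cells at -1.22 ± 0.34 (adjusted p = 0.049) and -3.19 ± 0.64 (adjusted p = 0.0123) and in RFP-single than in GFP-single cells at -5.59 ± 0.34 (adjusted p = 4.96e-06) and -8.75 ± 0.64 (adjusted p = 1.05e-05).

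Of 14 heparan sulfate core proteins, 2 were higher and 1 lower in double-positive than in GFP-single cells, 3 higher and 3 lower in RFP-single than in GFP-single cells, and 2 lower in double-positive than in RFP-single cells. The medians were 0.30 in double-positive against GFP-single, -0.22 in RFP-single against GFP-single and 0.14 in double-positive against RFP-single cells. Col18a1, the gene of collagen XVIII, averaged 1149 ± 528 in double-positive cells, 2768 ± 72.9 in RFP-single cells and 276 ± 274 in GFP-single cells and was higher in both red populations, at 2.50 ± 0.67 (adjusted p = 0.043) and 3.90 ± 0.67 (adjusted p = 0.00212). Tgfbr3 and Gpc4, which encode betaglycan and a glypican, were lower in double-positive than in RFP-single cells, at -1.85 ± 0.33 (adjusted p = 0.0125) and -1.25 ± 0.28 (adjusted p = 0.0369). Sdc2, a syndecan, was lower in both red populations, at -0.82 ± 0.20 (adjusted p = 0.0325) and -0.88 ± 0.20 (adjusted p = 0.0112). Agrn, the gene of agrin, was higher in double-positive than in GFP-single cells at 0.78 ± 0.21 (adjusted p = 0.0437), and Sdc4 was lower in RFP-single than in GFP-single cells at -2.52 ± 0.42 (adjusted p = 0.0018).

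Of the lysosomal breakdown genes, none of 19 passed in double-positive against GFP-single cells with limma, edgeR or DESeq2. There, 2 had an unadjusted limma p under 0.05. In RFP-single against GFP-single cells 3 were higher and 2 lower (26.3%, near the 20.3% of all genes). In double-positive against RFP-single cells 2 were higher and 1 lower (15.8%, beside 2.85% of all genes). The medians were 0.17 in double-positive against GFP-single, -0.14 in RFP-single against GFP-single and 0.10 in double-positive against RFP-single cells. Gusb and Idua, which remove glucuronic and iduronic acid from the chain ends, were lower in RFP-single than in GFP-single cells at -1.23 ± 0.20 (adjusted p = 0.00171) and -1.06 ± 0.24 (adjusted p = 0.00986). Hyal1, a hyaluronidase, and Idua were higher in double-positive than in RFP-single cells at 1.17 ± 0.24 (adjusted p = 0.0238) and 1.06 ± 0.24 (adjusted p = 0.0409). Hpse2, a relative of heparanase, averaged 12.5 ± 5.42 in double-positive cells, 101 ± 31.6 in RFP-single cells and 9.33 ± 4.03 in GFP-single cells, at 3.33 ± 0.63 (adjusted p = 0.00382) in RFP-single against GFP-single cells and -2.94 ± 0.63 (adjusted p = 0.0332) in double-positive against RFP-single cells.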

How the data were processed

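RNA of 9 sorted libraries was analysed, 3 populations from litters 1, 2 and 5. The authors deposited 1 table of normalized counts (a signal per gene, counts divided by a size factor) for 54532 Ensembl genes. FastQC, STAR, Salmon and DESeq2, and the build mm10, are named without roles in the submitters' processing notes. Per the labels' protocols, poly(A) RNA was made into Nextera XT libraries, and strand and counting settings are not given in the sources used here. Within each library 100% of the deposited values were whole multiples, within 0.001 read, of the value of 1 read, so reads were recovered. They totalled 25199258 to 47079305 per library, 23956 genes had no read, and the counting error is small beside the spread between libraries except for rare transcripts. Names, coordinates and exon lengths came from GENCODE release M21 on GRCm38, which is mm10, and 54495 IDs matched. Promoter windows came from RefSeq on GRCm38.p6.

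On the scale log2(normalized count + 1), limma 3.58.1 (R 4.3.3, trend on) was fitted to all 9 libraries and the 17764 genes with a mean of at least 10, adjusted by Benjamini-Hochberg and called under 0.05. Partner ratios had exact two-sided permutation tests. Alternatives were other pseudocounts (0.5 and 5), no filter and a filter of 50, TMM scaling, quantile normalization, litter as a block, 2 tests of the recovered reads (DESeq2 1.42.0, edgeR 4.0.16), a fit of only the 2 populations compared, omission of each library, and, chosen after seeing the data, a correction for exon length without and with the litter block. Litter numbers pair the libraries because the labels name the litter. Over genes, the deviations of same-litter libraries from their population means had a median correlation of 0.10 (-0.04 to 0.15 over 9 pairs), against -0.04 (-0.15 to 0.09) over 18 pairs of different litters. P-values measure the spread between litters. The scripts were tested on simulated data. The members and lists were chosen with earlier results of these data known. Named genes were all 42 members and, from each further list, up to 3 genes per comparison with the smallest adjusted p among those that passed. One listed gene that met this rule is not reported here.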

Additional observations from a re-analysis of the deposited data

How the results depend on the processing

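Over 21 alternatives, 6 of the 13 member calls in double-positive against GFP-single cells held throughout (Chst11, Chst12, Hs3st1, Sulf1, Sulf2 and Ugdh), as did 17 of 20 in RFP-single against GFP-single cells (all but B4galt7, Chst15 and Papss1) and 5 of 6 in double-positive against RFP-single cells (all but Slc26a2). Among all genes, limma called 1472, 3601 and 506 in these 3 comparisons, edgeR 1236, 3191 and 411, and DESeq2 2780, 4696 and 1152. A fit of only the 2 populations compared called 697 in double-positive against GFP-single and 1008 in double-positive against RFP-single cells, and length correction with litter as a replicate block called 766 between double-positive and RFP-single cells. Members lower in double-positive than in GFP-single cells numbered 8, but 5 with quantile normalization and 3 in the fit of 2 populations. Members lower in double-positive than in RFP-single cells numbered 0, but 1 with DESeq2, 2 in the fit of 2 populations, and 1 with length correction, without and with the block. With each library left out in turn, the genes called ranged over 637 to 1582 in double-positive against GFP-single, 2202 to 3723 in RFP-single against GFP-single and 216 to 1070 in double-positive against RFP-single cells, and over 1945 to 3356 in the F-test, where all libraries gave 3050. Members higher in double-positive against GFP-single cells ranged over 4 to 8 and members lower over 4 to 10, and members lower in double-positive against RFP-single cells over 0 to 1. Counts of genes moved by over 1.5 times without these libraries. In double-positive against GFP-single cells they were double-positive cells of litter 1 (855) and 2 (637). In RFP-single against GFP-single cells they were RFP-single cells of litter 1 (2268) and 5 (2202), as in the F-test (2024 and 1945). In double-positive against RFP-single cells they were double-positive cells of litter 1 (216) and 5 (235), RFP-single cells of litter 1 (284), 2 (224) and 5 (242) and GFP-single cells of litter 5 (1070). No log2 ratio could pass its test with 3 libraries against 3. In all, 6 differences of log2 ratios changed sign when 1 library was left out. Their ranges were -0.22 to 1.09 for Chst3 over Chst7 in double-positive against RFP-single cells, -0.33 to 0.71 and -0.72 to 0.32 for Chsy1 over Chsy3 in double-positive and in RFP-single against GFP-single cells, -0.00088 to 0.22 for Sulf1 over Sulf2 and -0.17 to 0.35 for Chsy1 over Ext1 in double-positive against RFP-single cells, and -0.47 to 0.47 for Ndst1 over Ndst2 in double-positive against GFP-single cells. Litter as a replicate block changed the call of Xylt1, Chst15 and Slc26a2 in double-positive against GFP-single cells, of Chst14 and Hs6st2 in RFP-single against GFP-single cells and of Slc26a2 in double-positive against RFP-single cells, with values in the text, and of no other member. Of 1824 values of members that had not passed, 67 had another sign under an alternative. The cause of these changes was not tested. Depth limits Chst13, Ndst3 and Ndst4, which had few reads. The F-test could not be refitted with 2 populations alone.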
